A study of Homo sapiens with 14 samples.

Results

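Genes that encode subunits of Mediator were examined for the amount of RNA polymerase II phosphorylated at Ser5 at their transcription start sites. Members were the windows with a RefSeq mRNA accession and a symbol made of MED and a number, with or without a final L, plus CDK8, CDK19 and CCNC. The rule found 31 genes among the 28159 windows of the table, 1 window of 1000 bp per gene, of which 18485 carried an mRNA accession. MED20 and MED21 were outside it because their rows carry a non-coding accession, and their mean signals of 65.3 and 38.9 CPM (window counts per library total, adjusted by TMM) lay within the members' range. The cells were wild-type HCT116, a human colorectal carcinoma line, and the antibody was 3E8. There were 4 conditions, each electroporated and then kept for 3 h in its medium: 10 µM Nutlin3a after electroporation with 10 µM of a bivalent stapled peptide, 0.1% DMSO after the same peptide, 10 µM Nutlin3a without peptide and 0.1% DMSO without peptide. Peptide samples had a further 200 nM of peptide in the medium. Nutlin3a stabilises p53 by keeping MDM2 off it, and the series asks whether the peptide, by blocking the contact of p53 with Mediator, alters that response. The ChIP libraries numbered 1 for Nutlin3a with peptide, 1 for DMSO with peptide, 2 for Nutlin3a and 2 for DMSO, with 2 input libraries (sheared chromatin that was not immunoprecipitated) per condition. The labels do not say whether replicates were separate cultures, so the p-values rest on a spread that may be technical.

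Mediator is a large complex that carries signals from DNA-bound transcription factors to RNA polymerase II at promoters. Its head and middle modules contact the polymerase, its tail receives most activators, MED14 runs through it as the backbone, and a detachable kinase module of CDK8 or CDK19, cyclin C, MED12 and MED13 controls its access to the polymerase. The cell uses Mediator at most polymerase II genes, and p53 is known to contact subunits that include MED1 and MED17. Ser5 of the polymerase's C-terminal domain is phosphorylated as transcription starts, mainly by CDK7, so the mark is read here as polymerase near the start site and not as mRNA or protein.

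Window counts summed to between 1290223 (Nutlin3a, replicate 1) and 2240951 (Nutlin3a with peptide) per ChIP library, and to between 161719 and 359276 per input library. A member had 6 to 404 counts in a ChIP library and 0 to 43 in an input library, so ratios to single inputs were not used. The 31 members together took 1534 to 1774 CPM in each ChIP library. Markers of colon epithelium (10 genes) had a median of 76.0 CPM, against 6.09 CPM for the 5 tested of 6 blood cell markers and 8.67 CPM for 6 mesenchyme markers. Nutlin3a replicate 1 had the fewest counts and a mitochondrial share of 0.122%, against 0.00948% to 0.0295% in the other 5 ChIP libraries. In the Nutlin3a against DMSO pairs, the 6 mesenchyme markers had a median log2 ratio of 1.48 in replicate 1 and 0.26 in replicate 2. The 4 tested of 5 genes silent in this tissue (ALB, INS, MYH6, GFAP and NEUROD1, median 6.14 CPM) had 1.16 and −0.07, and the blood cell markers 0.48 and 0.10. The larger ratio in replicate 1 was thus shared by lists of low signal and not particular to mesenchyme markers. The part of these differences in the members' values was not tested. In ChIP from a bulk culture, fewer cells with polymerase at a start site and less polymerase per cell cannot be told apart.

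The windows were placed without regard to strand. Of the mRNA windows on the plus strand with the RefSeq start inside, 80.3% covered 300 bp before and 700 bp after the start, while 87.2% of those on the minus strand covered 700 bp before and 300 bp after it. Of the 24 members with a RefSeq promoter entry, 23 had the start inside the window. The exception was MED12L, a paralog of MED12, whose window began 834 bp downstream of the RefSeq start. Some members' windows overlapped the window of a neighbouring gene and held the same reads in the overlap, among them MED22 with RPL7A over 939 bp, MED14 with MED14OS over 853 bp, MED31 with C17orf100 over 844 bp, MED29 with PAF1 over 729 bp, and MED19 with TMX2 and TMX2-CTNND1 over 693 bp. The signal of these members and of their neighbours cannot be told apart, and values for them are uncertain in that sense throughout.

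Promoters are shown for 5 members that the results below turn on: MED26, MED17 and MED11, which stood above input, MED12, which had the smallest p for Nutlin3a, and MED1, which binds p53. The sequences are from RefSeq (GRCh38.p14), from 250 bases before to 50 after the start and read 5′ to 3′ on the gene's strand. Capitals mark 3 motifs, searched on both strands: the ETS core CCGGAA, the YY1 core ATGGCGG and the GC box GGGCGG, with neighbouring copies allowed to overlap.
MED26, chr19:16628155-16628454, minus strand: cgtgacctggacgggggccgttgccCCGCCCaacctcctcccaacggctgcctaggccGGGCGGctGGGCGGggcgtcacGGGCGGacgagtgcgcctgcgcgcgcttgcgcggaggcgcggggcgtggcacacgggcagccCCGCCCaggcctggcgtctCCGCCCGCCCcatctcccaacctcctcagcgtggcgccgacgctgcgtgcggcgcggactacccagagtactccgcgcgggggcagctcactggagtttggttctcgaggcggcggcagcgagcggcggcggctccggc
MED17, chr11:93784032-93784331, plus strand: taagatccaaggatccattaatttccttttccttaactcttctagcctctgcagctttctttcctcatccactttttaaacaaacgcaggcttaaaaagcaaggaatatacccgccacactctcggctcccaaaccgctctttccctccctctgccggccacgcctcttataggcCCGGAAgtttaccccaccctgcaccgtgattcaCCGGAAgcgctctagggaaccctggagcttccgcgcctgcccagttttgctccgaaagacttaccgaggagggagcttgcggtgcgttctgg
MED11, chr17:4731178-4731477, plus strand: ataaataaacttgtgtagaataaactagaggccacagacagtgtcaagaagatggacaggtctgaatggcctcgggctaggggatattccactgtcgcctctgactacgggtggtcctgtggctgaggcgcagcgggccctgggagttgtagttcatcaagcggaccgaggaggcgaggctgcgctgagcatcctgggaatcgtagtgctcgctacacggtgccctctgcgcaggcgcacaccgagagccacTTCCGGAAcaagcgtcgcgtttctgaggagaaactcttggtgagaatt
MED12, chrX:71118346-71118645, plus strand: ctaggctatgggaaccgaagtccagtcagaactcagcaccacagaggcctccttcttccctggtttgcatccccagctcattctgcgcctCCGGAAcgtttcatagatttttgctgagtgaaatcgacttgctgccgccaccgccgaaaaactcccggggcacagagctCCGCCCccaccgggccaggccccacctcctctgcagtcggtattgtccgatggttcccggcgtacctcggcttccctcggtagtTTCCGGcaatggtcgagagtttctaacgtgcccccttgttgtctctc
MED1, chr17:39451214-39451513, minus strand: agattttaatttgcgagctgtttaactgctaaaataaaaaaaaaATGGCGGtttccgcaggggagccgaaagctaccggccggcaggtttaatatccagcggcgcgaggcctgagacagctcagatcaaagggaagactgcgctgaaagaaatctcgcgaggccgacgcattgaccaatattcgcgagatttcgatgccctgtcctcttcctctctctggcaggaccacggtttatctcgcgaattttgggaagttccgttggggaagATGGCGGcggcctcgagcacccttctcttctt

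The MED26 promoter held 7 GC boxes and neither of the other motifs. MED17 held 2 separate ETS cores, while the 2 matches in MED11 overlap on opposite strands of 1 stretch, TTCCGGAA. MED12 held 2 ETS cores and 1 GC box, and MED1 held 2 YY1 cores. Of the 24 members with a promoter entry, 7 held an ETS core (29.2%), against 17.2% of all 34943 promoters. A YY1 core stood in 6 members (25.0%), against 5.55% of all promoters, and the 6 were MED1, MED13L, MED16, MED18, MED25 and MED27. The GC box stood in 13 members (54.2%), against 44.9% of all promoters. CCAAT was found in 9 members (37.5%, against 34.6%), TATAAA in 2 (8.33%, against 11.6%), CACGTG in 2 (8.33%, against 7.23%), GCGCAT in 3 (12.5%, against 7.81%) and the p53 half-site in MED12L alone (4.17%, against 6.64%). The TATAAA holders were MED7 and MED16. These matches describe the letters in the windows and are not binding sites, and the shares were not tested. The 34943 promoters were not limited to mRNA genes or to 1 promoter per gene, as the members were. They are therefore not a matched reference.

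The start sites of the Mediator genes carried from little to much polymerase, over a 14.99-fold range between MED22 and MED6. The median member had 44.3 CPM, against a median of 26.1 CPM over all mRNA windows, and 24 of the 31 lay above that of the mRNA windows. Only MED22 (174 ± 22.8 CPM) and MED26 (122 ± 6.44 CPM) exceeded 100 CPM (mean ± SD over the 6 ChIP libraries, here and below), 26 members lay between 20 and 100 CPM, and MED12, MED12L and MED6 lay below 20 CPM. Every window was 1000 bp long, so levels are per the same length. In the order of levels, the steps from MED22 to MED26, from MED26 to MED11 (99.0 CPM) and from MED17 (97.5 CPM) to MED29 (82.4 CPM) were larger than the SD of either gene between libraries. At every other step the neighbours differed by less than the larger of their SDs.

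The head module, which contacts the polymerase directly, had the highest median of the modules (80.3 CPM over 6 genes). Its MED22 window had 167 CPM in Nutlin3a with peptide, 176 CPM in DMSO with peptide, 152 and 149 CPM in Nutlin3a, and 193 and 208 CPM in DMSO. Both Nutlin3a values lay below both DMSO values, and the RPL7A window, which encodes a ribosomal protein and shares 939 bp with it, averaged 176 CPM. MED17, the core of the head and a contact of p53, had 96.9 CPM in Nutlin3a with peptide, 93.2 CPM in DMSO with peptide, 97.5 and 80.7 CPM in Nutlin3a, and 119 and 97.6 CPM in DMSO. MED11, a small head subunit, had 85.4 CPM in Nutlin3a with peptide, 108 CPM in DMSO with peptide, 102 and 89.1 CPM in Nutlin3a, and 101 and 108 CPM in DMSO. For MED17 the Nutlin3a and DMSO values nearly touched, and for MED11 they overlapped. MED18 and MED8, which with MED20 form the movable part of the head, averaged 63.1 ± 12.5 and 62.0 ± 6.87 CPM. The lowest member was also of the head: MED6 had 8.89 CPM in Nutlin3a with peptide, 3.35 CPM in DMSO with peptide, 19.8 and 8.96 CPM in Nutlin3a, and 15.9 and 12.8 CPM in DMSO. Its value in DMSO with peptide rests on 6 counts.

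In the middle module (8 genes, median 42.7 CPM), MED26 stood far above the others. This subunit docks elongation factors on Mediator, and its window had 115 CPM in Nutlin3a with peptide, 125 CPM in DMSO with peptide, 120 and 118 CPM in Nutlin3a, and 133 and 124 CPM in DMSO. Its coefficient of variation over the 6 libraries was 5.25%, against 69.3% for MED24. MED1, which binds nuclear receptors and p53, had 47.6 CPM in Nutlin3a with peptide, 40.7 CPM in DMSO with peptide, 62.5 and 44.2 CPM in Nutlin3a, and 66.8 and 48.8 CPM in DMSO. In both conditions without peptide, replicate 1 was the higher one for MED1. MED19, a middle subunit whose window overlaps that of TMX2, had 71.1 CPM in Nutlin3a with peptide, 52.5 CPM in DMSO with peptide, 43.4 and 51.4 CPM in Nutlin3a, and 62.0 and 43.2 CPM in DMSO. MED10 averaged 44.3 ± 4.92 CPM, MED4 41.1 ± 2.70 CPM and MED7 34.2 ± 3.63 CPM. MED31 (32.3 ± 6.57 CPM) and MED9 (30.4 ± 5.05 CPM) were the lowest of the middle module. MED9 had 28.5 CPM in Nutlin3a with peptide, 39.1 CPM in DMSO with peptide, 29.0 and 27.5 CPM in Nutlin3a, and 25.0 and 33.4 CPM in DMSO. The backbone subunit MED14 had 36.9 CPM in Nutlin3a with peptide, 40.2 CPM in DMSO with peptide, 29.0 and 36.5 CPM in Nutlin3a, and 44.2 and 33.9 CPM in DMSO. For both genes the Nutlin3a and DMSO values overlapped.

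The tail (5 genes, median 38.2 CPM) and the subunits at the junction of head and tail (4 genes, median 38.7 CPM) were lower. In the tail, MED15, a target of activators such as SREBP, averaged 50.6 ± 5.15 CPM, MED16 41.6 ± 5.50 CPM and MED25 38.2 ± 6.58 CPM. MED23, a tail subunit, had 26.7 CPM in Nutlin3a with peptide, 17.3 CPM in DMSO with peptide, 20.6 and 16.1 CPM in Nutlin3a, and 20.2 and 26.2 CPM in DMSO. MED24 was the most variable member, with 19.1 CPM in Nutlin3a with peptide, 8.93 CPM in DMSO with peptide, 45.0 and 16.1 CPM in Nutlin3a, and 30.3 and 6.16 CPM in DMSO. Replicate 1 was well above replicate 2 for MED24 in both conditions. At the junction, MED29 averaged 82.4 ± 13.3 CPM in a window that overlaps that of PAF1, and MED28 averaged 52.5 ± 7.14 CPM. MED30 had 28.0 CPM in Nutlin3a with peptide, 17.3 CPM in DMSO with peptide, 30.5 and 17.9 CPM in Nutlin3a, and 25.5 and 25.2 CPM in DMSO. MED27 had 27.6 CPM in Nutlin3a with peptide, 16.7 CPM in DMSO with peptide, 22.1 and 23.3 CPM in Nutlin3a, and 38.0 and 21.6 CPM in DMSO.

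The kinase module (7 genes, median 47.1 CPM) holds 3 pairs of paralogs whose levels differed to unequal degrees. The kinase CDK8 had 47.6 CPM in Nutlin3a with peptide, 46.3 CPM in DMSO with peptide, 38.1 and 50.8 CPM in Nutlin3a, and 51.4 and 48.3 CPM in DMSO. Its paralog CDK19 had 37.4 CPM in Nutlin3a with peptide, 41.9 CPM in DMSO with peptide, 39.6 and 32.3 CPM in Nutlin3a, and 54.3 and 42.6 CPM in DMSO. The means, 47.1 ± 4.81 for CDK8 and 41.3 ± 7.36 CPM for CDK19, lay within 1 SD of CDK19. MED13, which ties the kinase to the core, had 68.9 CPM in Nutlin3a with peptide, 64.7 CPM in DMSO with peptide, 64.0 and 59.8 CPM in Nutlin3a, and 79.8 and 75.5 CPM in DMSO. MED13L, its paralog, had 46.2 CPM in Nutlin3a with peptide, 45.2 CPM in DMSO with peptide, 42.7 and 51.4 CPM in Nutlin3a, and 46.1 and 51.9 CPM in DMSO. The lowest MED13 value was above the highest MED13L value. MED12, which activates the kinase through cyclin C, had 10.2 CPM in Nutlin3a with peptide, 17.3 CPM in DMSO with peptide, 19.8 and 35.3 CPM in Nutlin3a, and 14.4 and 15.4 CPM in DMSO. MED12L had 9.78 CPM in Nutlin3a with peptide, 12.3 CPM in DMSO with peptide, 11.4 and 17.3 CPM in Nutlin3a, and 7.21 and 12.8 CPM in DMSO. The MED12 and MED12L values overlapped, and those of MED12L were read downstream of its start. CCNC, which encodes cyclin C, averaged 70.0 ± 20.2 CPM and had 107 CPM in Nutlin3a replicate 2, the highest of its 6 values.

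**Figure D1:**
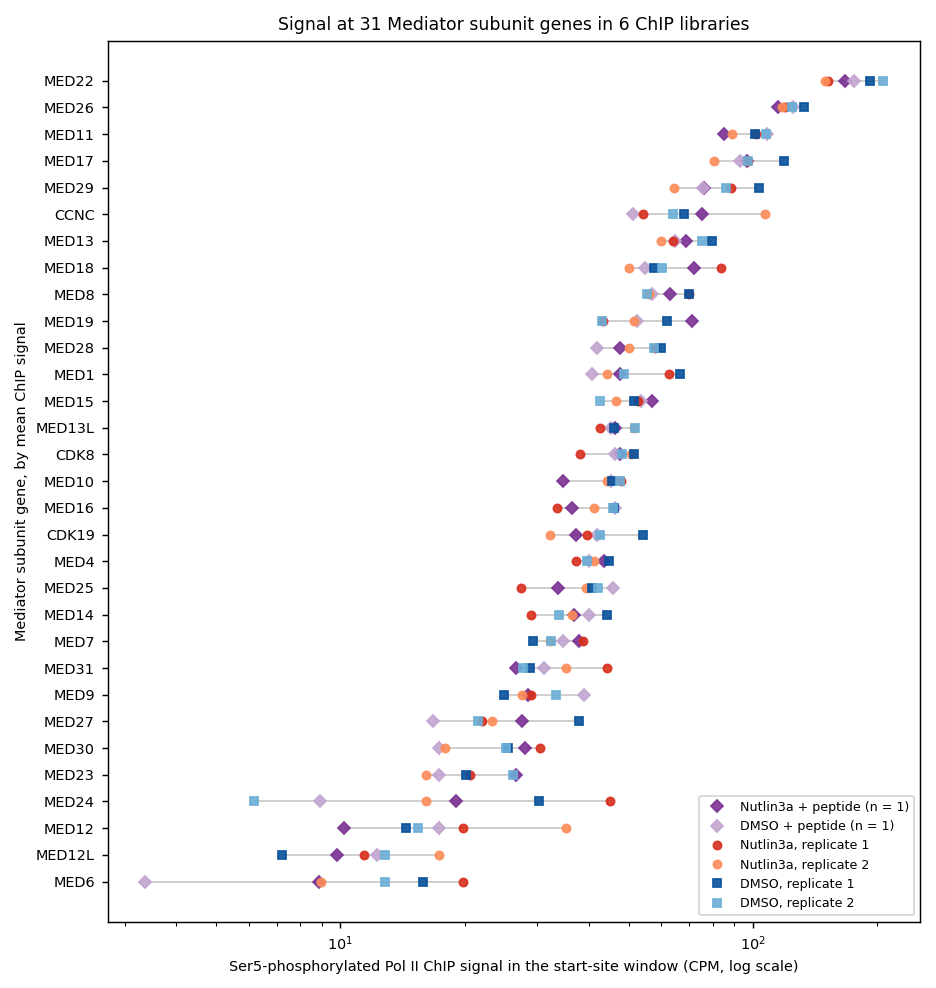
Ser5-phosphorylated polymerase signal in CPM (log scale) at 31 Mediator genes, ordered by mean, with 1 symbol per ChIP library and a grey line over their range. MED22 and MED26 lie above 100 CPM in all 6 libraries, and the widest ranges are those of MED24, MED6 and MED12.

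Against input, Mediator genes split into a few start sites with more signal in ChIP than in input and many whose difference did not pass the test. In a fit to all 14 libraries, 5 of 30 tested members were higher in ChIP (MED22, MED26, MED17, MED11 and MED14) and 2 were lower (MED30 and MED12L), while MED6 did not pass the filter on low counts. Over all 21504 tested windows, 23.3% were higher and 17.3% lower, so the 5 and 2 of 30 members were not above the shares over all windows. The members' median log2 ratio was 0.31, with 21 of 30 above 0, against −0.10 over all tested windows. Over the mRNA windows also tested in the fit to the ChIP libraries, the median was 0.05. These differences of medians were not tested. The log2 ratios were 1.89 ± 0.22 (SE) for MED22, 1.30 ± 0.26 for MED26, 1.05 ± 0.25 for MED17 and 0.99 ± 0.22 for MED11, with adjusted p of 8.02e-08, 0.000327, 0.00148 and 0.00101 (quasi-likelihood test of edgeR, Benjamini-Hochberg adjustment). Averaged over the libraries in that scaling, MED22 had 189 CPM in ChIP and 52.6 CPM in input, MED26 133 and 57.1 CPM, MED17 106 and 50.5 CPM, and MED11 108 and 54.5 CPM. The call for MED14 (0.92 ± 0.37, adjusted p = 0.0487, the same test) was lost when any 1 of the 4 DMSO or Nutlin3a libraries was left out (0.86 to 0.95). In edgeR it was also lost with DESeq2 size factors (adjusted p = 0.0847), total counts (0.121) or replicate number as a block (0.062). DESeq2 did not call it either (adjusted p = 0.133). The call for MED12L (log2 ratio −1.17 ± 0.47, adjusted p = 0.0453, edgeR) was lost without any 1 of the same libraries (−1.09 to −1.29). It was also lost without the filter on low counts (adjusted p = 0.0526, edgeR). MED30, a junction subunit, had 26.2 CPM in ChIP and 54.0 CPM in input, a log2 ratio of −1.10 ± 0.29 (adjusted p = 0.00435). With the DMSO libraries alone only MED22 was called, as higher. ChIP and input libraries are each scaled to their own windows, so the ratios order the windows and are no absolute enrichment.

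**Figure D2:**
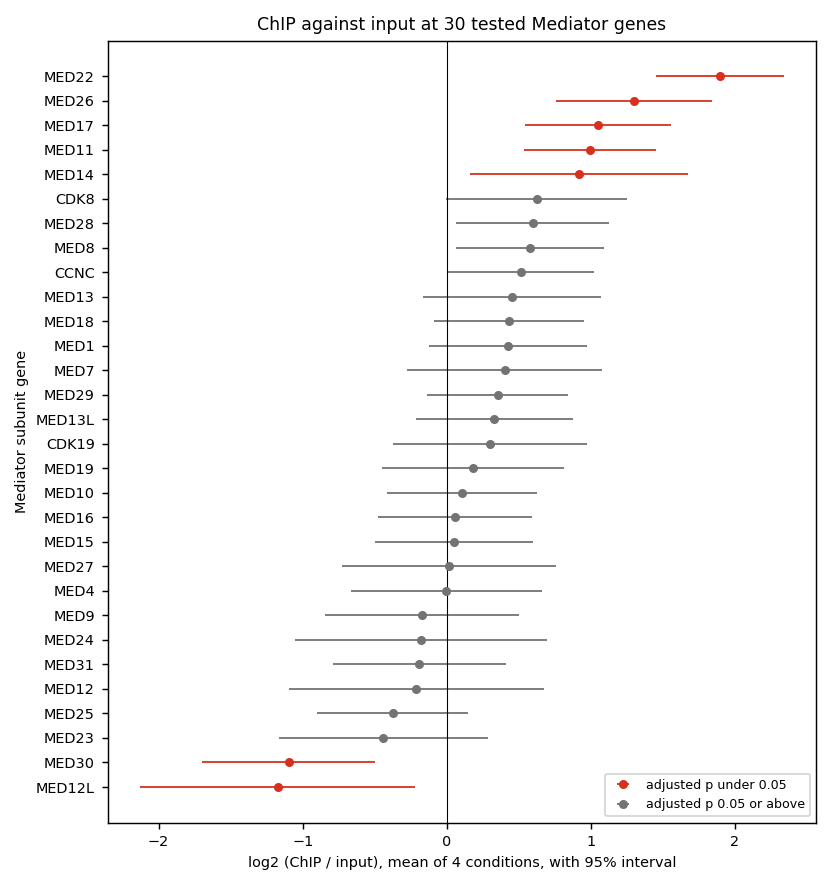
Log2 ratio of ChIP to input (mean of 4 conditions, with 95% interval) for the 30 tested Mediator genes, red where the adjusted p was under 0.05. MED22, MED26, MED17, MED11 and MED14 stand above 0 and MED30 and MED12L below it.

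Genes of the machinery that Mediator works with gave the following counts. Of the 12 Pol II subunit genes, 6 were higher in ChIP than in input, with a median level of 84.4 CPM. Of the 31 general transcription factor genes, 17 were higher (median 57.9 CPM), and of 21 elongation factor genes 6 were higher and 1 lower (median 59.2 CPM). Among 5 cofactor genes (EP300, CREBBP and cohesin or its loader), 3 were higher. Of 12 p53 target genes, listed for scale and not as machinery, 10 were higher. The ratio averages conditions with and without Nutlin3a. Without peptide, these targets had a median log2 change of 1.18 for Nutlin3a against DMSO, with 12 of 12 above 0. Differences between these lists and the members were not tested.

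For Nutlin3a against DMSO without peptide, no Mediator gene passed the threshold in either direction. Of all 25901 tested windows, 2 (0.00772%) were higher and 0% were lower (edgeR). At an unadjusted p under 0.05, edgeR gave 329 windows higher and 272 lower, 1 member higher (MED12) and 0 members lower. The count moved with single libraries: leaving out DMSO replicate 1 gave 88 windows higher, and DMSO replicate 2 gave 0. Leaving out Nutlin3a replicate 1 gave 17 higher and 15 lower, Nutlin3a replicate 2 gave 24 higher and 2 lower, and 0 members passed in each case. DESeq2 called 8 windows higher and no member. For scale, the p53 targets CDKN1A, MDM2 and TP53INP1 had log2 changes of 1.39 ± 0.24, 0.83 ± 0.22 and 1.57 ± 0.23. TP53INP1 passed (adjusted p = 0.0376, edgeR), while CDKN1A (0.109) and MDM2 (0.982) did not. Of the 12 p53 target genes, 1 was called. A member that did not pass is thus not shown to be unchanged.

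The members' median log2 change was −0.12, with 9 of 31 above 0, against 0.04 over all tested windows and −0.02 over mRNA windows. Without DMSO replicate 1 it was −0.050, with 13 of 31 above 0. Each of the 2 replicate pairs taken alone gave the members a median of −0.09. A separate run on the 11461 windows with a mean count of at least 50 re-estimated the TMM scaling on those windows. Its 24 members had a median of 0.024, but single members moved as well, CDK19 from −0.44 to −0.29 and MED1 from −0.13 to 0.028. The 0.024 is thus not the value of these 24 members in the main fit. With the authors' scaling constants the members' median was 0.41 with 31 of 31 above 0 and the median of all windows 0.53. The sign of the members below 0 thus depends on the scaling. The authors' constant was 1.82 for Nutlin3a replicate 1 and 0.595 to 0.748 for the other ChIP libraries. The part of that 1 library in the shift was not tested. Relative to the median of all tested windows the 31 members stood at −0.16 in the TMM scaling, −0.12 in the authors' and −0.072 without DMSO replicate 1. At a mean count of at least 50 the 24 members kept stood at 0.020. That value is relative to the 11461 windows kept and so has a different reference. The 95% interval of a member's change reached a median of 0.57 to either side, and 0.45 to 1.20 across members, before any adjustment for the number of windows. Pol II subunits had a median of −0.22 (2 of 12 above 0), general factors −0.16 (8 of 31), elongation factors −0.10 (8 of 21) and cofactors −0.12 (0 of 5), and p53 targets 1.18 (12 of 12).

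MED12 had the largest positive change, 0.89 ± 0.41 (adjusted p = 0.982, edgeR), with 19.8 and 35.3 CPM in Nutlin3a, against 14.4 and 15.4 CPM in DMSO. Its 2 Nutlin3a values lay above both DMSO values, and without Nutlin3a replicate 2 the change was 0.42. MED24 followed with 0.71 ± 0.57 (adjusted p = 0.982), where the groups overlap and replicate 1 exceeds replicate 2 in each. Its value was −0.19 without Nutlin3a replicate 1 and 2.28 without DMSO replicate 1. The most negative changes were CDK19 at −0.44 ± 0.28 and MED22 at −0.41 ± 0.22 (adjusted p = 0.982 for each), beside −0.42 ± 0.22 for RPL7A. MED17 stood at −0.29 ± 0.22 and MED1 at −0.13 ± 0.27, and the value for MED1 was 0.12 without DMSO replicate 1 and likewise without Nutlin3a replicate 2.

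Counted over members, the Nutlin3a values lay wholly above the DMSO values in 2 (MED12 and MED31) and wholly below in 7 (MED22, MED26, MED17, MED13, MED16, CDK19 and MED25). Over all tested windows the groups did not overlap in 16.1% (above) and 15.7% (below). The paired ratios had the same sign in both replicates in 5 positive and 11 negative members and opposite signs in 15. With the pair with peptide included, MED24 and MED15 were positive in all 3 pairs and MED22, MED26, MED16, CDK19 and MED25 negative in all 3. Of the 25901 tested windows, 14007 were positive in replicate 1, 13117 in replicate 2 and 12765 in the pair with peptide. Agreement of signs between pairs was not counted over all windows, so the members' sign counts have no share to be read against. The peptide pair is 1 library against 1 and has no replicate check. There the members' median was 0.06 with 19 of 31 above 0, and the p53 targets' median was 1.32 with 12 of 12 above 0.

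**Figure D3:**
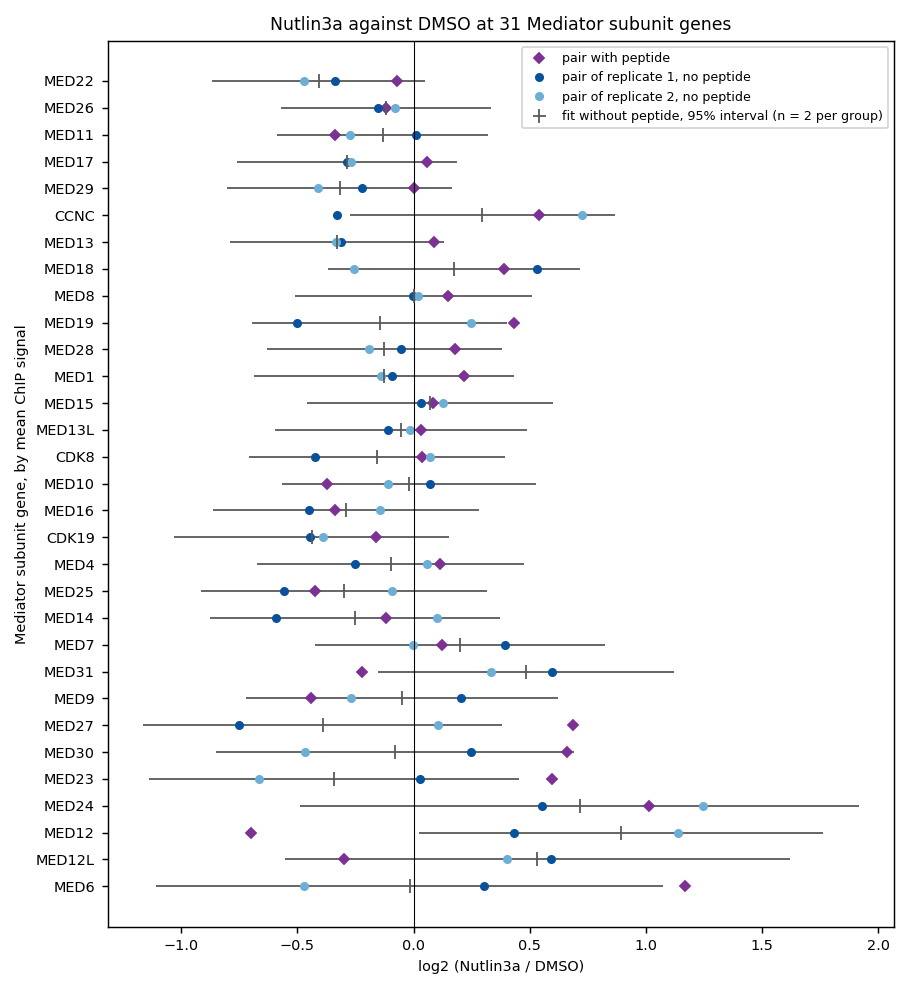
Log2 ratio of Nutlin3a to DMSO per Mediator gene: fitted change without peptide with its 95% interval (bars), and the separate pairs (symbols), including the pair with peptide. All but 1 interval include 0, the exception being that of MED12.

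The difference between the Nutlin3a response with and without peptide was tested in the same fit. In this comparison 0 of 31 members and 0% of the 25901 windows passed, higher or lower (edgeR). At an unadjusted p under 0.05, edgeR gave 107 windows higher and 165 lower, with 1 member, MED12, lower, and DESeq2 called 0 windows. Without DMSO replicate 1, 34 windows were lower, and without Nutlin3a replicate 2, 5 were, again with 0 members. The peptide libraries have no replicate and were assumed to vary like the others. The members' median difference was 0.22 with 21 of 31 above 0, against −0.01 over all windows. It was 0.10 without DMSO replicate 1 (17 of 31 above 0), 0.11 without Nutlin3a replicate 2 and 0.15 without Nutlin3a replicate 1. In the run at a mean count of at least 50, with its scaling re-estimated, the 24 members kept had a median of 0.0092. Single members moved there as well, MED17 from 0.34 to 0.17 and MED1 from 0.35 to 0.18.

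MED12 had the most negative difference, −1.65 ± 0.73 (adjusted p = 1, edgeR): it had 10.2 CPM in Nutlin3a with peptide and 17.3 CPM in DMSO with peptide, against 19.8 and 35.3 CPM in Nutlin3a and 14.4 and 15.4 CPM in DMSO. MED12L followed at −0.86 ± 0.89, with −0.50 to −1.33 when 1 library was left out. The most positive were MED6 at 1.41 ± 1.00 and MED27 at 1.11 ± 0.64. Without DMSO replicate 1 MED27 was at 0.64, and without Nutlin3a replicate 2 MED6 was at 0.92. MED12, MED12L and MED6 are the 3 members with the lowest signal. For the p53-binding subunits the differences were 0.34 ± 0.38 for MED17 and 0.35 ± 0.46 for MED1, with 95% intervals of −0.47 to 1.15 and −0.63 to 1.33. MED17 was at 0.19 without DMSO replicate 1 and 0.20 without Nutlin3a replicate 2. MED1 was at 0.10 without DMSO replicate 1, 0.099 without Nutlin3a replicate 2, 0.55 without DMSO replicate 2 and 0.61 without Nutlin3a replicate 1. The interval of a member's difference reached a median of 0.98 to either side.

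For peptide against no peptide under DMSO, 0 of 31 members and 0% of windows passed in either direction (edgeR, 1 library against 2). At an unadjusted p under 0.05, edgeR gave 178 windows higher and 215 lower, with 0 members higher and 1 lower (MED6), and DESeq2 called 0 windows. Without DMSO replicate 2, 53 windows were lower, again with 0 members. MED6 stood at −2.08 ± 0.77 (adjusted p = 1), with 3.35 CPM in DMSO with peptide, against 15.9 and 12.8 CPM in DMSO. The next most negative was MED24 at −1.03 ± 0.78, which was 0.47 within replicate 2, the number of the peptide library. The most positive were MED9 at 0.42 ± 0.37 and MED12L at 0.29 ± 0.62, and MED12L was −0.06 within replicate 2. The members' median was −0.11 (10 of 31 above 0), and −0.06 within replicate 2, against −0.02 over all windows. Without DMSO replicate 1 it was −0.059.

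For peptide against no peptide under Nutlin3a, 0 of 31 members and 0% of windows passed in either direction (edgeR). At an unadjusted p under 0.05, edgeR gave 146 windows higher and 486 lower, with 0 members higher and 1 lower (MED12), and DESeq2 called 0 windows. Without Nutlin3a replicate 1, 2 windows were lower, and without Nutlin3a replicate 2, 7 were higher and 112 lower, with 0 members in each case. MED12 stood at −1.43 ± 0.53 (adjusted p = 0.999), with 10.2 CPM in Nutlin3a with peptide, against 19.8 and 35.3 CPM in Nutlin3a. The other most negative member was MED6 at −0.67 ± 0.66, and without Nutlin3a replicate 1 it was at −0.018. MED19 was the most positive at 0.58 ± 0.30, with 71.1 CPM in Nutlin3a with peptide, against 43.4 and 51.4 CPM in Nutlin3a, followed by MED23 at 0.55 ± 0.44. The members' median was 0.006 (17 of 31 above 0), against −0.02 over all windows, and it was 0.073 without Nutlin3a replicate 1 and −0.053 without Nutlin3a replicate 2.

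**Figure D4:**
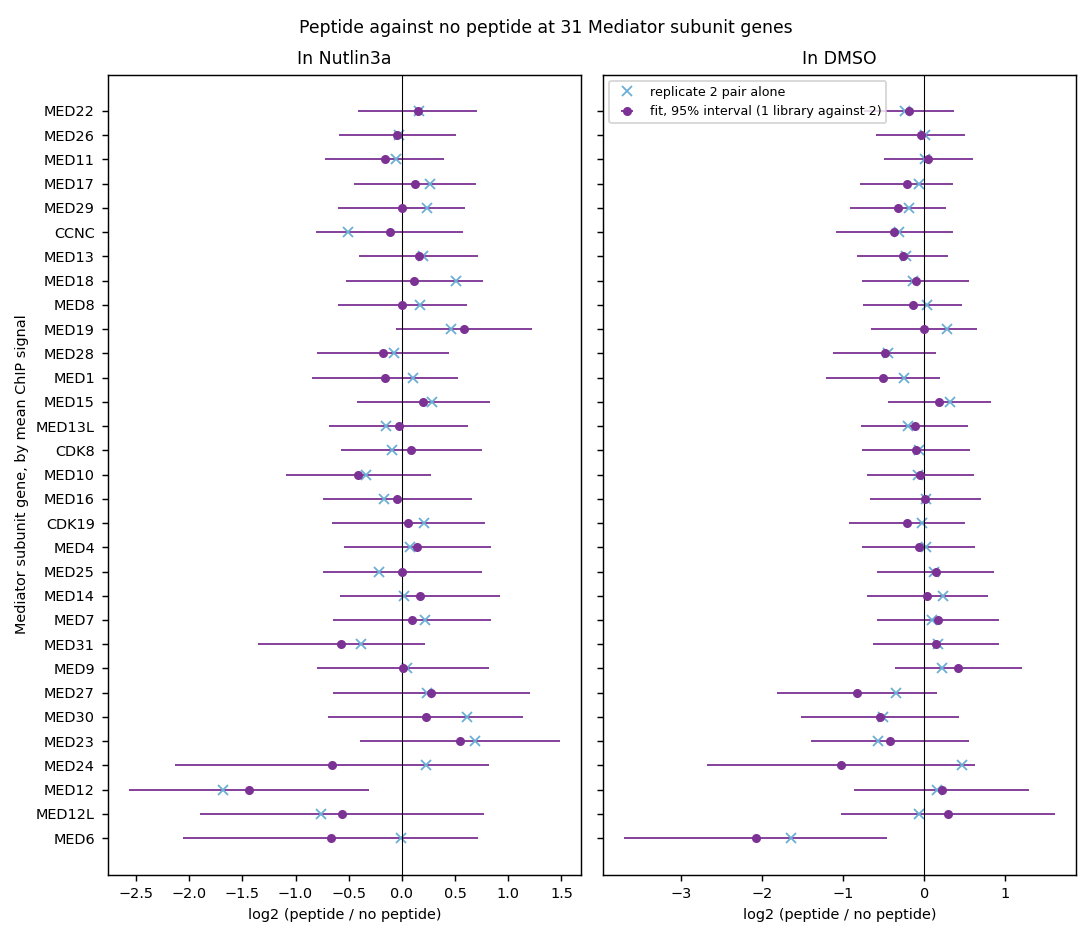
Log2 ratio of peptide to no peptide per Mediator gene, under Nutlin3a (left) and DMSO (right): the fitted change with its 95% interval (circles) and the replicate 2 pair alone (crosses). In the left panel the interval of MED12 lies below 0 and in the right panel that of MED6 does, and the other intervals include 0.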

How the data were processed

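Per the submitters' processing notes the genome build was hg38. Aligner, counter and filters are not given in the sources used here. The authors deposited unnormalized read counts for each gene's window and, per the file headers, a scaled signal, which the values show to be the counts times 1 constant per library. That signal served only as an alternative scaling.

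Counts were tested with edgeR 4.0.16 (R 4.3.3; quasi-likelihood, TMM, filterByExpr with a minimum count of 10, Benjamini-Hochberg over all tested windows, threshold 0.05). The 6 ChIP libraries were fitted as 4 group means (2 residual degrees of freedom, biological coefficient of variation 26.0%), and all 14 libraries as 8 group means for ChIP against input. In the ChIP fit, p-values and intervals also rest on 14.8 prior degrees of freedom, borrowed from all tested windows. Each SE of an edgeR change was the absolute log2 change divided by the square root of its F statistic. Log2 ratios of single pairs used TMM-scaled CPM and a prior count of 2. DESeq2 1.42.0 was an alternative.

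Full values were given for the 4 highest and 4 lowest members, the 2 largest changes in each direction per comparison, the paralog pairs, MED1, MED17 and members passing the threshold. CCNC was given beyond this rule, chosen after its values were seen. Members, lists and promoter motifs were chosen with earlier results of these data known. Promoters came from RefSeq (24 of 31 members matched by symbol). Some overlapping windows are not reported here.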

Additional observations from a re-analysis of the deposited data

How the results depend on the processing

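No treatment or peptide comparison called a member under any alternative run. The run at a mean count of at least 50 kept 24 members and re-estimated the scaling on its 11461 windows. Against input, 9 of 31 members were called higher and 1 lower without a filter on low counts, beside 5917 and 3132 of 28159 windows. With the DMSO libraries alone 1 of 31 was higher and 0 lower, beside 1741 and 531 of 20489 windows. Leaving out 1 library took away the calls of MED14 and MED12L and gave the members a median log2 ratio of 0.27 to 0.32, against 0.31 in the main fit. With the replicate block, MED24 turned to 0.043 against input.

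For Nutlin3a without peptide, 6 windows were higher with total counts, 8 with DESeq2, 39 with the replicate block, and 0 with the authors' constants, a mean count of at least 50 or the 4 libraries without peptide alone. Leaving out 1 library gave 0 to 88 higher and 0 to 15 lower. The members' median was 0.41 with the authors' constants and 0.024 at a mean count of at least 50. The constant was 1.82 for Nutlin3a replicate 1 and at most 0.748 for any other ChIP library. The authors' constants turned the sign of CDK19 (0.092), CDK8 (0.27), MED1 (0.44), MED11 (0.41), MED13 (0.19), MED13L (0.41), MED17 (0.25), MED22 (0.12), MED26 (0.39) and MED6 (0.60). A mean count of at least 50 turned MED1 (0.028), MED11 (0.012), MED13L (0.084) and MED26 (0.028). Total counts turned MED13L (0.012) and MED6 (0.052), DESeq2 turned MED6 (0.0018) and the 4 libraries alone turned MED6 (0.015). Leaving out 1 library gave −0.37 to 0.025 for CDK8, −0.39 to 0.12 for MED1, −0.18 to 0.068 for MED13L, −0.19 to 2.28 for MED24 and −0.68 to 0.48 for MED6.

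For the difference between responses, the median was 0.0092 at a mean count of at least 50, and 5 windows were lower with the replicate block and 0 to 34 without 1 library. Under DMSO, the peptide value of MED12L was −0.014 with the replicate block, −0.060 in replicate 2 alone and −0.064 to 0.77 without 1 library. That of MED24 was 0.20, 0.47 and −1.75 to 0.53. The median was −0.34 with the authors' constants and −0.017 at a mean count of at least 50, and 4 windows were higher with the block and 0 to 53 lower without 1 library. Under Nutlin3a, the median was −0.31 with the authors' constants and 0.12 with the block, 55 windows were lower with the constants and 1 with the block, and leaving out 1 library gave 2 to 112 lower and 0 to 7 higher. The cause was not tested.

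The replicate numbers are shared between groups, and without peptide the deviations by number correlated at 0.45, with only 2 pairs. The main fit did not pair by number, and each peptide ChIP library, of number 2, was set against both numbers. With the replicate block, 39 windows were higher for Nutlin3a without peptide, against 2 in the main fit. The members' median moved from 0.006 to 0.12 for peptide under Nutlin3a and from −0.11 to −0.039 under DMSO. For Nutlin3a without peptide it stayed at −0.12. Whether the numbers mark paired cultures was not tested. The interval widths combine depth and the spread between libraries, whose parts were not separated.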
